A study of Mus musculus with 8 samples.

Results

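The genes described here serve the oxidation of fatty acids in liver, the making of ketone bodies, and the response of both to the nuclear receptor PPARalpha. A fixed list of 33 genes was matched to the gene symbols of the array's probe sets, and 32 of them were measured, of 21335 genes with a symbol in all. Acsl1 matched no probe set and was not analysed here. Where a gene had several probe sets, the brightest was taken. Cyp4a10 was the only listed gene with a probe set naming several genes (Cyp4a10, Cyp4a31 and Cyp4a32). That shared probe set was also its brightest.

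Liver RNA came from 8 adult male mice, with 1 array per mouse. In 4 controls the genotype is labelled wild type, and 4 mice are labelled as Rictor floxed with a knockout of Rictor limited to the liver. The series names the model as albumin-Cre with Rictor LoxP/LoxP, so that Cre is driven by a hepatocyte promoter. Liver cells without Cre activity keep the gene, and which cells those are was not measured. All mice had been fasted for 16 h and then had free access to food for 3 h. No strain or exact age is given in the labels, nor whether the controls carry a floxed allele or Cre, and nothing states litters. Rictor is required for mTOR complex 2, a kinase complex that acts on Akt when insulin signals. Values are RMA expression values, taken as log2, and each difference below subtracts the control mean from the mean of the 4 knockout-labelled arrays (n = 4 and 4) on that scale.

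Long-chain fatty acids enter mitochondria as carnitine esters and are shortened there by repeated rounds of dehydrogenation, hydration, dehydrogenation and thiolysis. Peroxisomes carry out similar rounds on very long and branched chains, and microsomal Cyp4a enzymes oxidise the far end of the chain. In the fasted liver PPARalpha raises many genes of these routes together, and the acetyl-CoA that is formed feeds ketone bodies. Feeding and insulin oppose this programme.

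The genotype labels could not be checked on these arrays, and replicate 1 of either group lay apart from its other 3 arrays. Rictor itself differed by 0.05 (SE 0.13, 95% interval from -0.24 to 0.33), on a whole-transcript probe set that can keep signal outside the deleted exons and from cells without Cre activity. Igfbp1, an insulin-repressed gene, read 10.04 on control 1 against 7.29 to 7.40 on the other controls, and in the knockout-labelled group it read 7.76 on array 1 and 9.65 to 10.10 on the remaining 3. On the first principal component, the main axis of difference among the arrays, knockout-labelled array 1 scored -0.630, within controls 2 to 4 (-0.765 to -0.629). Control 1 scored -0.107 there, and knockout-labelled arrays 2 to 4 scored 0.898 to 1. Results are therefore also given without the arrays numbered 1. All 8 hepatocyte markers lay at or above the 99.5th percentile of brightness. All 8 also had a higher mean in the knockout-labelled group, where 43.1% of all genes had one. Their median difference was 0.033, and none had an unadjusted p under 0.05. Of 4 measured erythroid markers 2 had an unadjusted p under 0.05, and the mean level of the list ran from 10.39 to 10.78 on control arrays and from 10.54 to 10.99 on knockout-labelled arrays. Those 2 were globin probe sets, and both were higher. That of Hbb-bt, which also names 3 other beta-globin genes, differed by 0.85 (SE 0.20) with separated groups, more than any listed gene. That of Hba-a1, which also names Hba-a2, differed by 0.42 (SE 0.14) with overlapping groups. Alas2 and Slc4a1, without such a p, differed by -0.36 (SE 0.20) and 0.01 (SE 0.11). 1 marker each of the sinusoidal endothelial (Fcgr2b, -0.19), cholangiocyte (Epcam, -0.46) and lymphocyte (Cd79a, -0.37) lists also had an unadjusted p under 0.05, and the other lists had none. With all arrays at equal weights limma called 0 of the 50 markers measured in the 9 cell type lists. The part of these cells in the results below was not tested. In whole liver, fewer cells of a type and less RNA per cell cannot be told apart.

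In knockout-labelled livers most genes of fatty acid oxidation had a mean above that of controls, though with all 8 arrays at equal weights none passed the test. Of the 32 measured genes 25 had a higher mean and 7 a lower one, whereas 43.1% of all genes had a higher mean. The median difference was 0.10, against -0.02 over the 20173 genes tested. The limma test, adjusted by Benjamini-Hochberg over all probe sets with a symbol, called 0 of the 32 genes, where 0% of all genes were called in either direction. A test without limma's moderation also called 0, with 10 of them at an unadjusted p under 0.05. Without adjustment of the limma test 8 had a p under 0.05, all of them higher. Over all genes 3.93% had such a p and were higher, and 6.51% had one and were lower. That split moved with the scaling, to 4.6% higher and 3.99% lower with array medians set equal and to 5.08% and 5.74% with quantile normalisation, while 8 and 9 listed genes were higher at such a p. Quantile normalisation also gave 1 lower, Acaa2 at -0.14. In 4 of the 32 the groups did not overlap, all with the knockout-labelled arrays above, against 1.87% of all genes in that direction and 2.58% in the other.

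The listed genes are among the brightest on the array, so the same counts were taken over the 2529 genes at least as bright as the dimmest of them. In that set 43.9% had a higher mean, 8.42% had an unadjusted p under 0.05 and were higher, 14% had one and were lower, and 3.95% were separated with the knockout-labelled arrays above. The median difference there was -0.03. Most listed genes are brighter than that lower bound, so brightness was not matched gene by gene. No test was made of the list as a whole, since its genes were chosen with earlier results of these data known.

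**Figure D1:**
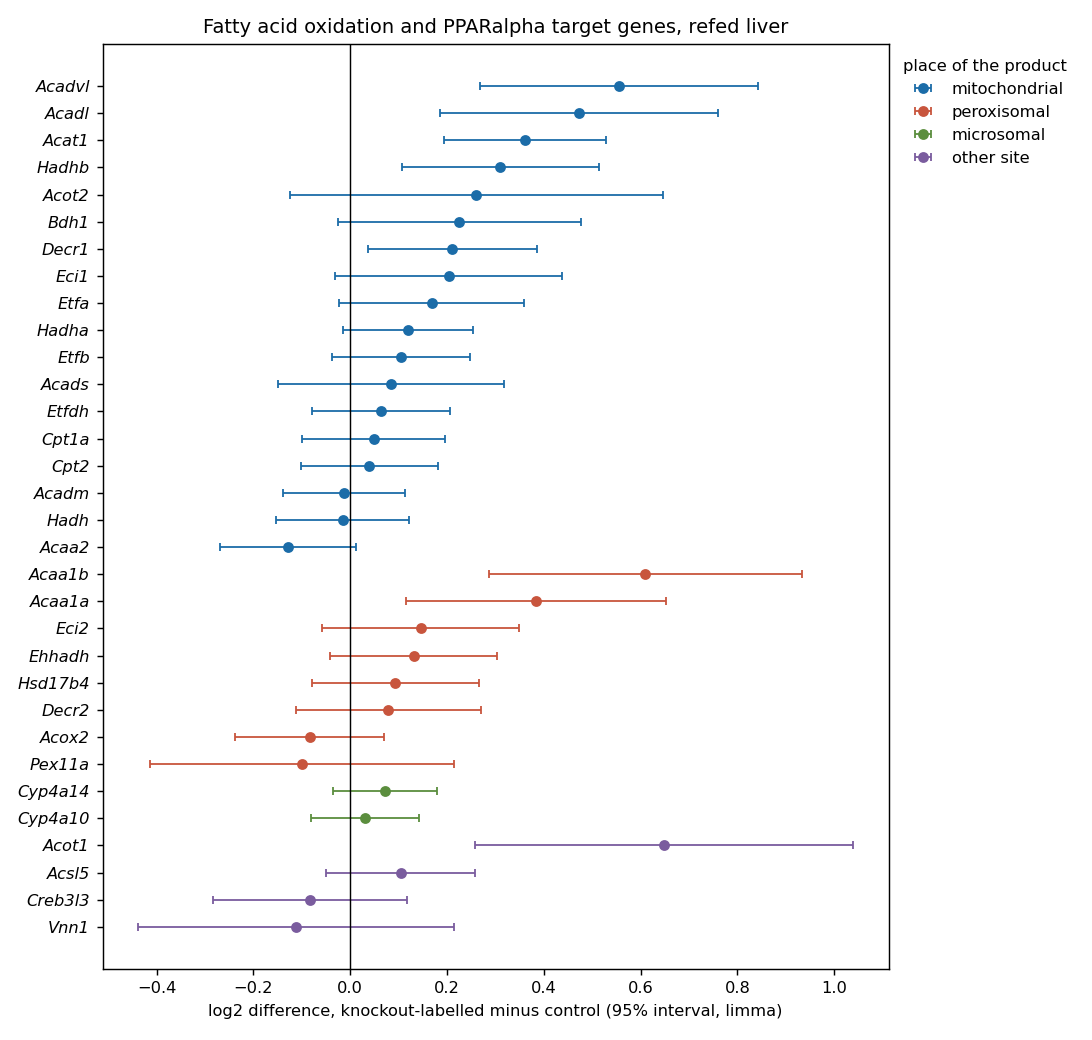
Log2 difference of each measured gene (points) with its 95% interval from limma (bars), ordered by size within the place where the gene product acts. The intervals of 8 genes lie wholly above 0, none lies wholly below it, and the microsomal genes Cyp4a10 and Cyp4a14 sit close to 0.

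The carnitine entry step showed little difference between the groups. Cpt1a encodes the carnitine palmitoyltransferase of the outer membrane, the regulated step of mitochondrial entry. It read 13.15, 12.94, 13.14 and 13.17 on the 4 controls and 13.09, 13.19, 13.23 and 13.10 on the knockout-labelled arrays. The groups overlapped, and the difference was 0.05 (SE 0.07, 95% interval from -0.10 to 0.20; limma adjusted p = 0.852). Cpt2, its inner-membrane partner, differed by 0.04 (SE 0.06, 95% interval from -0.10 to 0.18).

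Among the acyl-CoA dehydrogenases, which open each round of oxidation, the 2 acting on longer chains had the largest differences. Acadvl, for very long chains, read 10.93, 10.68, 10.93 and 10.69 on controls and 10.95, 11.44, 11.58 and 11.48 on the knockout-labelled arrays. All knockout-labelled arrays lay above all controls, but array 1 of that group only by 0.021. Its difference was 0.56 (SE 0.13; limma adjusted p = 0.139), or 1.47-fold.

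Acadl, the long-chain dehydrogenase, read 11.66, 11.25, 11.13 and 11.36 on controls and 11.50, 11.92, 12.03 and 11.83 on the knockout-labelled arrays. The groups overlapped through control 1, which exceeded array 1 of the other group, while arrays 2 to 4 were separated. The difference was 0.47 (SE 0.13; limma adjusted p = 0.211). Acadm and Acads, the medium- and short-chain dehydrogenases, differed by -0.01 (SE 0.06) and 0.08 (SE 0.11), and neither lay outside the spread of its groups. Whether these dehydrogenases differ among themselves in their response was not tested.

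Upstream sequence of Acadvl and Acadm is shown because, of the 4 listed acyl-CoA dehydrogenases, Acadvl had the highest difference and Acadm the lowest. Both are 250 bases before the RefSeq gene start (GRCm38.p6), 5′ to 3′ on the gene's strand, chr11:70015429-70015678 minus for Acadvl and chr3:153944644-153944893 minus for Acadm. Capitals mark the core hexamer AGGTCA of nuclear receptor elements, or its reverse complement TGACCT.
Acadvl: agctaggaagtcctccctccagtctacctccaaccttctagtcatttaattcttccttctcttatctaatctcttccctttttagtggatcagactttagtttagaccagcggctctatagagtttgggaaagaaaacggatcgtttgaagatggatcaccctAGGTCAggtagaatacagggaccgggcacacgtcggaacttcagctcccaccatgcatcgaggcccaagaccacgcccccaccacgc
Acadm: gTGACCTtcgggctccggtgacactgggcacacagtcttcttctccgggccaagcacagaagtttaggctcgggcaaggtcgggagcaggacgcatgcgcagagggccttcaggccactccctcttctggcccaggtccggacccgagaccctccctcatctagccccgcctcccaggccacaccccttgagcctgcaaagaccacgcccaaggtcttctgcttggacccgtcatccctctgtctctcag
The hexamer begins 87 bases before the start in Acadvl and 249 bases before it in Acadm. PPARalpha with its partner RXR is known to bind direct repeats of this hexamer with a spacer of a single base. Windows of 300 bases, reaching 50 bases past the start, were held for 25 of the 32 genes and searched on both strands. The hexamer was found for 4 of the 25 genes (Acadm, Acadvl, Cpt1a and Creb3l3), or 16.0%, and in 4 of their 28 windows, against 16.3% of all 32851 windows. The repeat AGGTCANAGGTCA was in none of the 25 and in 0.0396% of all windows, and the looser AGGNCANAGGNCA, which includes it, in none and in 0.381%. The share of genes with the hexamer was thus close to that over all promoters, and the 4 genes with it differed by -0.01, 0.56, 0.05 and -0.08 in the order given.

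The trifunctional protein carries the hydratase, the long-chain dehydrogenase and the thiolase steps on its subunits Hadha and Hadhb. Hadha read 12.77, 12.66, 12.73 and 12.73 on controls and 12.81, 12.79, 12.93 and 12.85 on the knockout-labelled arrays. The groups did not overlap, by a margin of only 0.012, and the difference was 0.12 (SE 0.06; limma adjusted p = 0.505). Hadhb read 12.07, 11.85, 11.71 and 11.80 on controls and 12.01, 12.18, 12.32 and 12.16 on the knockout-labelled arrays. Control 1 alone reached into the other group. The difference of Hadhb was 0.31 (SE 0.09; limma adjusted p = 0.246), and its other probe set gave 0.35 (SE 0.10).

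Hadha and Hadhb lie head to head on opposite strands and share the stretch between their starts, which is why it is shown. In the RefSeq table the starts are 272 bases apart, and the 250 bases before Hadhb, on the plus strand at chr5:30155003-30155252 (GRCm38.p6), all lie between them. They hold no AGGTCA hexamer, so no letter is in capitals.
Hadhb: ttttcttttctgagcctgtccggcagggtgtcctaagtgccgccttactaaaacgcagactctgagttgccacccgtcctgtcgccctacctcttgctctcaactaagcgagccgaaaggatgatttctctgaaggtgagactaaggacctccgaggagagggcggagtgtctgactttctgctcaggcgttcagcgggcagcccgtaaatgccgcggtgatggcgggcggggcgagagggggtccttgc
The intervals of the genes on either side of it, from -0.015 to 0.25 for Hadha and from 0.11 to 0.51 for Hadhb, overlapped. Whether they differ in their response was not tested.

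The remaining chain-shortening and accessory enzymes of mitochondria mostly had small positive differences. Hadh, the medium- and short-chain hydroxyacyl-CoA dehydrogenase, differed by -0.02 (SE 0.06), with its sign turning when single arrays were left out. Acaa2, the mitochondrial thiolase, had the lowest difference of all 32 genes, -0.13 (SE 0.06, 95% interval from -0.27 to 0.012). The means of Hadh and Acaa2 thus did not follow those of Acadvl, Acadl and Hadhb. Hadh and Acaa2 were also brighter, with control means of 13.44 and 13.65, against 10.81, 11.35 and 11.86 for Acadvl, Acadl and Hadhb. Whether brightness near the top of the scale compresses their differences was not tested.

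Decr1, the dienoyl-CoA reductase needed for polyunsaturated chains, read 12.02, 11.85, 11.81 and 11.77 on controls and 12.03, 12.03, 12.20 and 12.03 on the knockout-labelled arrays. The groups were separated by only 0.0065, with control 1 just below. Its difference was 0.21 (SE 0.08; limma adjusted p = 0.352). Eci1, the enoyl-CoA isomerase that handles double bonds, differed by 0.20 (SE 0.11). The electron-transfer flavoprotein, which takes electrons from the dehydrogenases, differed by 0.17 (SE 0.09) in its subunit Etfa and 0.11 (SE 0.07) in Etfb. Its ubiquinone reductase Etfdh differed by 0.06 (SE 0.07). Each of these 4 genes had overlapping groups.

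Acat1, the mitochondrial acetoacetyl-CoA thiolase that joins acetyl-CoA units toward ketone bodies, had the smallest p of the list. It read 12.61, 12.42, 12.51 and 12.44 on controls and 12.68, 12.94, 12.91 and 12.89 on the knockout-labelled arrays. The groups were separated by 0.066, with the arrays numbered 1 nearest to each other. The difference was 0.36 (SE 0.08; limma adjusted p = 0.119), or 1.29-fold. Bdh1, which interconverts acetoacetate and 3-hydroxybutyrate, differed by 0.23 (SE 0.12). It lay at 0.34 without control 1. Acot2, a mitochondrial acyl-CoA thioesterase, differed by 0.26 (SE 0.18) and had the widest spread within groups of the list. Its difference was 0.11 without knockout-labelled array 3 and 0.43 without control 1.

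Among peroxisomal genes the thiolases had the largest differences. Acaa1b read 12.04, 11.68, 11.59 and 11.32 on controls and 12.04, 12.17, 12.59 and 12.28 on the knockout-labelled arrays. Control 1 lay at the level of knockout-labelled array 1, and the remaining controls lay below the whole other group. The difference was 0.61 (SE 0.15; limma adjusted p = 0.152), or 1.53-fold. Its close paralogue Acaa1a read 10.47, 10.22, 10.10 and 9.94 on controls and 10.38, 10.53, 10.76 and 10.60 on the knockout-labelled arrays. The order of the arrays within the controls was the same as in Acaa1b. The difference was 0.38 (SE 0.12; limma adjusted p = 0.278). How far each probe set reads its near-identical paralogue was not tested, so these are not separate pieces of evidence.

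Ehhadh, the peroxisomal bifunctional enzyme and a well-known PPARalpha target, read 13.84, 13.59, 13.54 and 13.60 on controls and 13.68, 13.70, 13.96 and 13.76 on the knockout-labelled arrays. Control 1 was the second highest of all 8 arrays. The difference was 0.13 (SE 0.08; limma adjusted p = 0.580). Eci2 (enoyl-CoA isomerase), Hsd17b4 (the D-bifunctional protein) and Decr2 (peroxisomal dienoyl-CoA reductase) differed by 0.15 (SE 0.09), 0.09 (SE 0.08) and 0.08 (SE 0.09). Acox2, the oxidase for branched chains and bile acid intermediates, and Pex11a, a PPARalpha-responsive factor of peroxisome division, had lower means, by -0.08 (SE 0.07) and -0.10 (SE 0.14). Pex11a turned to 0.06 without knockout-labelled array 2, which read 11.32 against 11.77 to 12.07 on the rest of its group.

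The microsomal genes, among the strongest PPARalpha targets in mouse liver, showed little difference and little spread. Cyp4a14 read 14.068, 14.001, 13.962 and 14.050 on controls and 14.024, 14.091, 14.135 and 14.119 on the knockout-labelled arrays. The groups overlapped, and the difference was 0.07 (SE 0.05, 95% interval from -0.035 to 0.18; limma adjusted p = 0.632). Cyp4a10, by the probe set it shares with Cyp4a31 and Cyp4a32, read 13.85, 13.80, 13.69 and 13.81 on controls and 13.81, 13.80, 13.84 and 13.83 on the knockout-labelled arrays. That gave a difference of 0.03 (SE 0.05, 95% interval from -0.08 to 0.14; limma adjusted p = 0.884). The probe set that names Cyp4a10 alone gave 0.08 (SE 0.05). These levels lie near the top of the scale, since the highest value on any array was 14.62. Cpt1a, Acadm, Hadh, Acaa2 and Ehhadh, with control means from 13.10 to 13.65, also lay at or above percentile 99.1 of brightness. How far a ceiling compresses the differences of any of these genes was not tested.

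Acot1 had the largest difference of the list. It encodes a cytosolic acyl-CoA thioesterase induced by PPARalpha and is the neighbour of Acot2 in the RefSeq gene table. It read 10.56, 10.06, 9.96 and 9.85 on controls and 10.71, 10.61, 11.24 and 10.46 on the knockout-labelled arrays. Control 1 lay above knockout-labelled array 4, and no other array crossed. The difference was 0.65 (SE 0.18; limma adjusted p = 0.211), or 1.57-fold. How far its probe set reads Acot2 was not tested.

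The other genes outside the 3 organelle groups did not go one way. Acsl5, an acyl-CoA synthetase that activates fatty acids, differed by 0.10 (SE 0.07). Vnn1, a pantetheinase at the cell surface, and Creb3l3, an ER-anchored transcription factor that acts with PPARalpha, had lower means, by -0.11 (SE 0.15) and -0.08 (SE 0.09). Vnn1 turned to 0.012 without control 1.

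**Figure D2:**
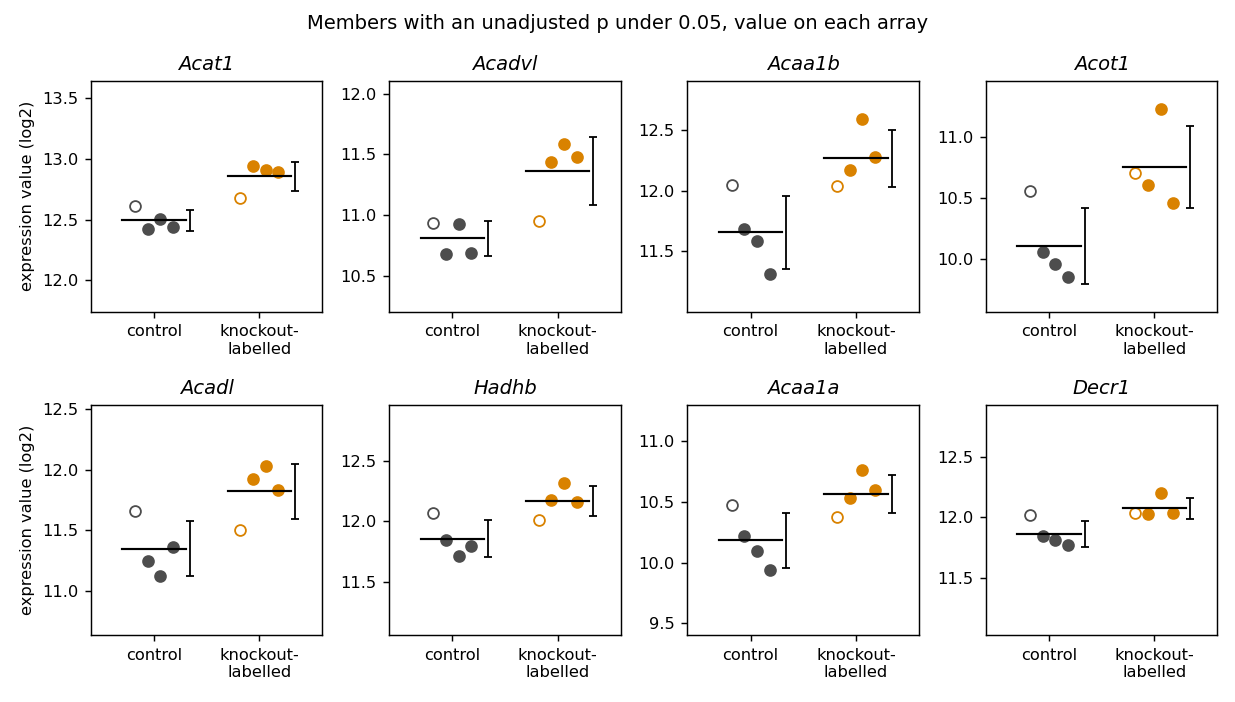
Expression value (log2) on each array for the 8 genes with an unadjusted p under 0.05, all panels spanning the same height. Open circles are the arrays numbered 1, horizontal lines are group means and bars are 1 SD (n = 4); in Acadl, Hadhb, Acaa1a and Acaa1b control 1 lies above knockout-labelled array 1.

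Set side by side by place, the median difference was 0.14 over 18 mitochondrial genes, of which 15 were higher, and 0.11 over 8 peroxisomal genes, of which 6 were higher. It was 0.05 for the 2 microsomal genes and 0.01 for the 4 genes of other sites, of which 2 were higher. With single arrays left out these medians ran from 0.10 to 0.19 (mitochondrial), from 0.06 without knockout-labelled array 3 to 0.18 without control 1 (peroxisomal), from 0.03 without control 3 to 0.07 (microsomal) and from -0.02 without knockout-labelled array 3 to 0.07 without control 1 (other sites). An unadjusted p under 0.05 was found for 5 mitochondrial, 2 peroxisomal, 0 microsomal and 1 other gene, and separated groups for 4 mitochondrial genes alone. The spread among genes was wide: mitochondrial differences ran from -0.13 to 0.56 and peroxisomal ones from -0.10 to 0.61. The places were not tested against each other.

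The mean of all 32 genes was not high on every knockout-labelled array alone. Taken as the difference from the control mean, it was 0.16, -0.03, -0.06 and -0.08 on controls 1 to 4 and 0.11, 0.12, 0.27 and 0.12 on the knockout-labelled arrays. Control 1 therefore lay above 3 of the knockout-labelled arrays, while knockout-labelled array 1 lay close to 2 arrays of its own group. This differs from Igfbp1, where knockout-labelled array 1 lay near controls 2 to 4. For the mitochondrial genes the mean was 0.15 on control 1, from -0.06 to -0.04 on the other controls and from 0.11 to 0.26 on the knockout-labelled arrays. For the peroxisomal genes it was 0.17 on control 1, from -0.13 to -0.01 on the other controls and from 0.08 to 0.32 on the knockout-labelled arrays. Knockout-labelled array 3 was the highest array in both.

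**Figure D3:**
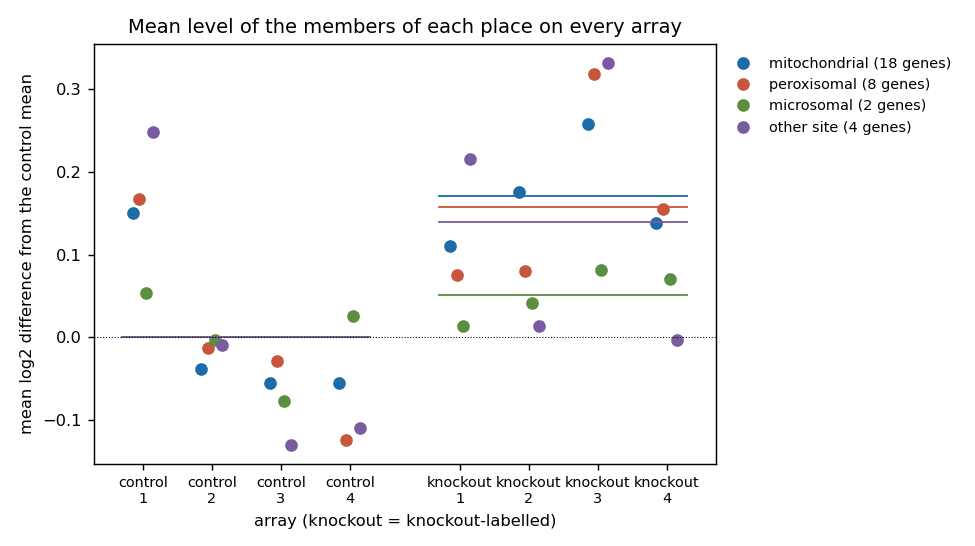
Mean log2 difference from the control mean on each array for the mitochondrial, peroxisomal, microsomal and other genes (points), with the mean of each group of 4 arrays (lines). Control 1 stands above controls 2 to 4 for all 4 kinds of gene, and knockout-labelled array 3 is the highest of its group for all 4.

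The number of calls hung on whether the arrays numbered 1 were kept and on how arrays were weighted. When arrays were weighted by limma, with the lowest weight for knockout-labelled array 1 (0.471), 7 genes passed and all were higher: Acadvl, Acadl, Hadhb, Acat1, Acaa1a, Acaa1b and Acot1. Control 2 had the highest weight (2.32), and control 1 (0.821) was weighted much like controls 3 and 4 (0.825 and 0.904). Over all genes 1.37% passed as higher and 2.08% as lower under these weights, and 4.07% passed as higher among the 2529 bright genes. Without knockout-labelled array 1, 5 genes passed (Acadvl, Acadl, Hadhb, Acat1 and Acaa1b; background 1.13% higher and 3.12% lower). Without control 1, 4 passed (Acadl, Acat1, Acaa1b and Acot1; background 0.402% higher and 0.139% lower). Without both, 9 passed, the 7 named with Decr1 and Bdh1 (background 2.39% higher and 4.94% lower). No listed gene passed as lower in any of these fits. Cell type markers passed in the same fits: Hbb-bt at 0.90 and Epcam at -0.57 with array weights (limma adjusted p = 0.0252 and 0.0387), Epcam and Alas2, both lower, without knockout-labelled array 1, and Hbb-bt (higher), Epcam, Alas2 and Sox9 (lower) without both. None of the 50 markers passed without control 1. Whether these markers bear on the calls was not tested.

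Differences of the 8 genes with an unadjusted p under 0.05 moved by less than 1.5 times when any single array was left out, while 17 of the other 24 moved by more. The 8 were chosen by p on these same arrays, and the 24 include differences near 0, such as Acadm at -0.01. This contrast follows largely from that choice and does not measure robustness. Acat1 lay at 0.41 with array weights and 0.46 without both arrays, Acadvl at 0.68 and 0.73, Acadl at 0.56 and 0.68, and Acaa1b at 0.68 and 0.82. In those of their 20 alternatives fitted with limma, the limma adjusted p ranged from 0.0012 to 0.442 for Acat1 and from 0.000745 to 0.493 for Acadvl. It ranged from 0.00086 to 0.605 for Acadl and from 0.0016 to 0.498 for Acaa1b. The test without limma's moderation gave an adjusted p of 0.499, 0.503, 0.514 and 0.503 in the same order. The weights favour arrays near the rest of their labelled group, and both arrays were left out with their values known. A call in them adds no independent test.

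**Figure D4:**
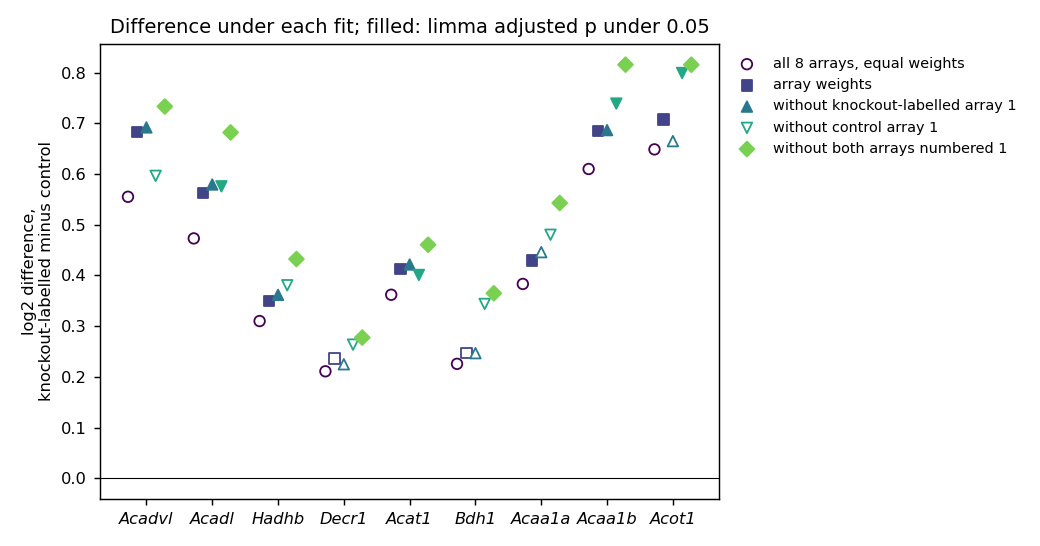
Log2 difference of the 9 genes that passed in at least 1 of 5 fits, with filled symbols where the limma adjusted p was under 0.05. With all 8 arrays at equal weights no symbol is filled, and without both arrays numbered 1 all 9 are.

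Beyond the list, 112 of 125 further genes of these pathways were measured, 110 of them by probe sets not taken for a listed gene. Among these, the probe set of Cpt1b also names Gm44502 and that of Cyp4v3 also names Klkb1. Cyp4a31 and Cyp4a32 are read only by the probe set taken for Cyp4a10 and add no measurement. With all arrays at equal weights limma called 0. Without adjustment 15 were higher and 10 lower at a p under 0.05, against 3.93% higher and 6.51% lower over all genes and 8.42% and 14% over the 2529 bright genes. These shares are the background for each list below. With array weights 9 passed as higher and 4 as lower, against 1.37% and 2.08% over all genes.

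The receptor and its partner had small differences. Ppara read 11.86, 11.87, 12.03 and 12.05 on controls and 11.87, 11.77, 11.94 and 11.77 on the knockout-labelled arrays, so that it differed by -0.12 (SE 0.08; limma adjusted p = 0.633). Its groups overlapped, and Rxra, its heterodimer partner, differed by 0.04 (SE 0.08). The coactivator gene Ppargc1a differed by 0.10 (SE 0.18) by its brighter probe set and by 0.60 (SE 0.19) by the other, so its value is not settled. Of the 14 measured genes of this list, which holds PPAR and RXR genes and coregulators, 10 had a lower mean, where 43.1% of all genes had a higher one. An unadjusted p under 0.05 was found for Pparg at -0.77 (SE 0.27) and for Med1, a Mediator subunit, at -0.22 (SE 0.09). In Pparg control 1 had the lowest control value, 9.70, and knockout-labelled array 1 the highest value of all, 10.23.

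Among 24 measured PPARalpha targets outside oxidation 18 had a higher mean, against 43.1% of all genes, 7 had an unadjusted p under 0.05 and were higher (3.93% of all genes), and 0 had one and were lower (6.51%). Plin2 and Plin5, which coat lipid droplets, differed by 0.40 (SE 0.11) and 0.41 (SE 0.12; limma adjusted p = 0.211 and 0.254), both with separated groups. With array weights 4 genes of this list passed as higher and 0 as lower.

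Other genes of the same organelles went both ways. In the mitochondrial list of 21 genes 3 were higher and 4 lower at an unadjusted p under 0.05 (background 3.93% and 6.51%), among them Acad12, an acyl-CoA dehydrogenase family member, at 0.43 (SE 0.13) and Acsm5, a medium-chain acyl-CoA synthetase, at -0.32 (SE 0.09). In the peroxisomal list of 23 measured genes 3 were higher and 0 lower. They included Amacr, a racemase for branched chains, at 0.32 (SE 0.07; limma adjusted p = 0.139) and Abcd3, a fatty acid transporter of the peroxisomal membrane, at 0.32 (SE 0.10), both with separated groups. Of 12 measured peroxins, the factors of peroxisome assembly, 1 was higher (Pex16, 0.26, SE 0.10) and 0 were lower, with Pex26 at -0.20 (SE 0.10).

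In the microsomal list 9 genes were read by probe sets not taken for a listed gene. Of these, 0 were higher and 3 lower at an unadjusted p under 0.05 (6.51% of all genes were lower, and 14% of the bright ones). They included Cyp4a12a, a male-predominant fatty acid hydroxylase, at -0.27 (SE 0.10) and the electron donor Cyb5a at -0.20 (SE 0.09). Cyp4a12b, a paralogue of Cyp4a12a, was also lower, at -0.20 (SE 0.09). How far the probe sets of these paralogues read each other's transcript was not tested, so they are not separate pieces of evidence. Among 7 measured genes of ketone body synthesis and use 1 was higher and 1 lower. They were Slc16a1, a carrier of ketone bodies and lactate, at 0.30 (SE 0.12), and Bdh2, a cytosolic dehydrogenase, at -0.82 (SE 0.28). Bdh2 read 8.10 on control 1 against 8.62 to 8.93 on the other controls, and 8.78 on knockout-labelled array 1 against 7.39 to 7.56 on the others. Both arrays numbered 1 thus lay toward the other group in Bdh2.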

How the data were processed

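The authors' deposited values, for 35556 probe sets of the Affymetrix Mouse Gene 1.0 ST array, were taken as log2 from their range and from the naming of RMA. Per the submitters' processing notes, the software was RMA, Partek and Affymetrix Expression Console, in no stated order, and the base of the logarithm and the genome build are not given in the sources used here. RMA brings arrays near to one distribution, so a shift common to most genes can be hidden. Array medians still ran from 6.899 on knockout-labelled array 1 to 7.027 on knockout-labelled array 4.

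Gene names came from the platform annotation, with symbols updated by Entrez identifier against RefSeq (GRCm38.p6). All 23410 probe sets with at least 1 symbol were fitted with limma 3.58.1 in R 4.3.3 (lmFit, eBayes with a mean-variance trend, equal weights, no covariate, no filter), and p-values were adjusted by Benjamini-Hochberg over them, with 0.05 as the threshold. Counts over all genes use the brightest probe set of each gene. The number of arrays limits precision, and p-values measure only the spread between these mice. The procedure was tested on simulated data.

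The listed genes, their places and the other pathway lists were chosen with earlier results of these data known. All listed genes are named. Values on every array are given for those with an unadjusted p under 0.05 or separated groups and for Cpt1a, Cyp4a10, Cyp4a14, Ehhadh and Acot1. Of other genes the rule took Ppara, Rxra, Ppargc1a, Rictor, Igfbp1 and at most 2 per list with the smallest p. Array values of Bdh2 and Pparg, and the results of Cd36 and Cyp4a12b, were added after they were seen.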

Additional observations from a re-analysis of the deposited data

Results flagged for a closer look

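In 74 groups of 4 values examined, 6 had a highest or lowest value far from the other 3, where chance flags about 1 in 20 groups. Cpt1a read 12.94 on control 2, against 13.14 to 13.17 on the other controls. Cpt2 read 12.45 on control 3, against 12.31 to 12.33. Acads read 11.30 on knockout-labelled array 4, against 11.37 on each of the others. Decr1 read 12.20 on knockout-labelled array 3, against 12.03 on each of the others. The mean of the 18 mitochondrial genes, as a difference from the control mean, was 0.15 on control 1 against -0.06 to -0.04 on controls 2 to 4. The mean of all 32 genes was 0.27 on knockout-labelled array 3 against 0.11 to 0.12 on the rest of its group.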

How the results depend on the processing

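Of the 32 genes 25 kept the sign of their difference in all alternatives run. With single arrays left out Acadm ran from -0.027 to 0.019, Acads from -0.019 to 0.16, Cpt1a from -0.0052 to 0.070, Cyp4a10 from -0.0019 to 0.050, Hadh from -0.064 to 0.012, Pex11a from -0.19 to 0.061 and Vnn1 from -0.25 to 0.012. With array medians set equal, Acadm lay at 0.0049 and Hadh at 0.0016. The count of listed genes called was 7 with array weights, from 0 to 5 with single arrays left out and 9 without both arrays numbered 1. For the other pathway genes these counts were 13, from 0 to 13 and 26. They went both ways, with 9 higher and 4 lower under array weights. Without knockout-labelled array 1 Plin5 passed as higher and Bdh2 as lower. Both also passed without both arrays numbered 1, at 0.47 and -1.32. Over all genes 1.13% passed as higher and 3.12% as lower in the first of these fits, and 2.39% and 4.94% in the second. All other settings run gave 0 calls among listed and among other pathway genes. No median of a place moved by more than the spread between arrays, though that of the other sites changed sign. The replicate number as a block gave 0 listed genes called; same-numbered arrays had deviations correlated at -0.079, -0.13, -0.033 and 0.078, which does not pair them. Cyp4a10 by its own probe set, an alternative added after seeing the data, gave 0.082. With only probe sets of 1 symbol tested, which drops the shared probe set of Cyp4a10, 24 of 31 listed genes were higher and 0 were called. Leaving out listed genes that have no probe set of 1 symbol was not run, since there are none.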
